A study of Rattus norvegicus with 48 samples.

Results

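Described here are 98 genes whose RNA was lower late than early in the active phase in both the subcutaneous and the visceral fat of adolescent male rats, in sedentary and in exercised animals alike. They were chosen from the measured values themselves. Expression was taken as log2(CPM + 0.5), where CPM is a gene's count per 1000000 counts of its library. A gene was a member if its mean CPM over all libraries was at least 1 and its late mean was below its early mean by 1.5-fold or more in each of 4 comparisons, sedentary and exercised rats in either depot. Of 23481 gene IDs, 13574 reached the level and 105 of those passed the fold in all 4 comparisons. A list of 7 of these was set aside by ID as part of the rule, which left 98. The 4 late-minus-early differences are therefore a description of what was selected, and nothing is inferred from their direction.

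The libraries came from 24 rats, 6 in each of 4 groups: early active phase control, early active phase exercise, late active phase control and late active phase exercise. The early groups belong to zeitgeber time 13 and the late groups to zeitgeber time 23, counted in hours of the light cycle, and all tissue was taken on postnatal day 61, which for exercised rats was 24 h after the last session. Each rat gave a subcutaneous fat sample (SAT) and a visceral one (VAT), so that 8 groups of 6 make 48 libraries of polyA RNA. The sources used here do not give the kind of exercise, the strain or the feeding schedule. Because the clock time differs between the early and the late arms in both sedentary and exercised rats, the exercise comparisons were made within a phase, against sedentary rats of the same phase.

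As background, nearly every cell of a mammal carries a molecular clock in which transcription activators switch on their own repressors with a delay of about a day, and the same activators drive many output genes whose RNA rises and falls daily. In adipose tissue such rhythms reach lipid storage and release, adipokine secretion and the response to glucocorticoids. Feeding, body temperature, activity and circulating hormones also change over the day, and in nocturnal animals such as the rat they change most around the start and the end of the dark phase. A difference between 2 clock times does not by itself separate a rhythm of the tissue from a response to such signals.

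The deposited table names genes by Ensembl ID only, and none of these IDs could be paired with a symbol, a promoter or a protein from the references at hand. The genes are therefore called here by their rank, from member 1, with the largest mean fall over the 4 comparisons, to member 98, with the smallest, and what each of them encodes is not stated. For the same reason no pathway list, no marker of adipocytes or of other cell types and no sequence could be set beside these values. The labelled tissue was not checked against its markers. In bulk tissue, fewer cells of a type and less RNA per cell cannot be told apart.

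Total counts ran from 13163675 to 17890033 per library, so that a single count in the shallowest library was worth 0.076 CPM and a count of 0 there allowed up to 0.228 CPM (3 counts, counting error only). In SAT, 2 libraries stood apart, late exercise replicates 4 and 6, with a median Spearman correlation of 0.803 and 0.814 with the other SAT libraries against 0.951 to 0.976 for the other 22. In VAT, early exercise replicate 3 and early control replicate 5 stood apart less far, at 0.940 and 0.947 against 0.976 to 0.984. Results that rest on these 4 libraries are given with and without them.

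The members spanned a wide range of levels. Their mean over the 48 libraries ran from 1.06 to 1013 CPM with a median of 21.5 CPM, next to a median of 20.8 CPM for all 13574 genes that reached the level. CPM is not corrected for gene length, so these figures order RNA counts and not molecules. Mean levels were under 10 CPM for 36 members, from 10 to 100 CPM for 44 and at least 100 CPM for 18.

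As selected, the members were lower late by a median of 1.09 on the log2 scale in sedentary SAT, 1.36 in exercised SAT, 0.99 in sedentary VAT and 1.26 in exercised VAT. Late minus early, the median over all 13574 genes was 0.02, 0.03, -0.01 and -0.08 on the log2 scale in the same order, next to -1.09, -1.36, -0.99 and -1.26 for the members. The fold of 1.5 was reached downwards by 3.85% of all genes in sedentary SAT, 9.32% in exercised SAT, 3.82% in sedentary VAT and 5.94% in exercised VAT. The late mean was below the early mean by 2-fold or more in 59, 77, 49 and 68 members in that order, and by 4-fold or more in 9, 16, 8 and 10. In all 4 comparisons at once, 34 members were lower by at least 2-fold and only members 1 and 5 by at least 4-fold. The fall was larger in exercised than in sedentary rats for 68 members in SAT and for 77 in VAT. It was larger in VAT than in SAT for 46 members in sedentary and 39 in exercised rats. These counts rest on the rule's values, lack a share over all genes and do not test exercise. The members' median fitted difference (edgeR, below) was -1.19 in sedentary and -1.42 in exercised SAT. Without the libraries that stand apart it was -1.19 and -1.31. In VAT it was -1.12 and -1.33, and -1.16 and -1.41 without them. At the edge of the rule, the smallest of the 4 falls was 0.59 on the log2 scale for members 67, 98 and 79, the 3 just inside, and 0.58, 0.58 and 0.57 for the 3 genes just outside.

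**Figure D1:**
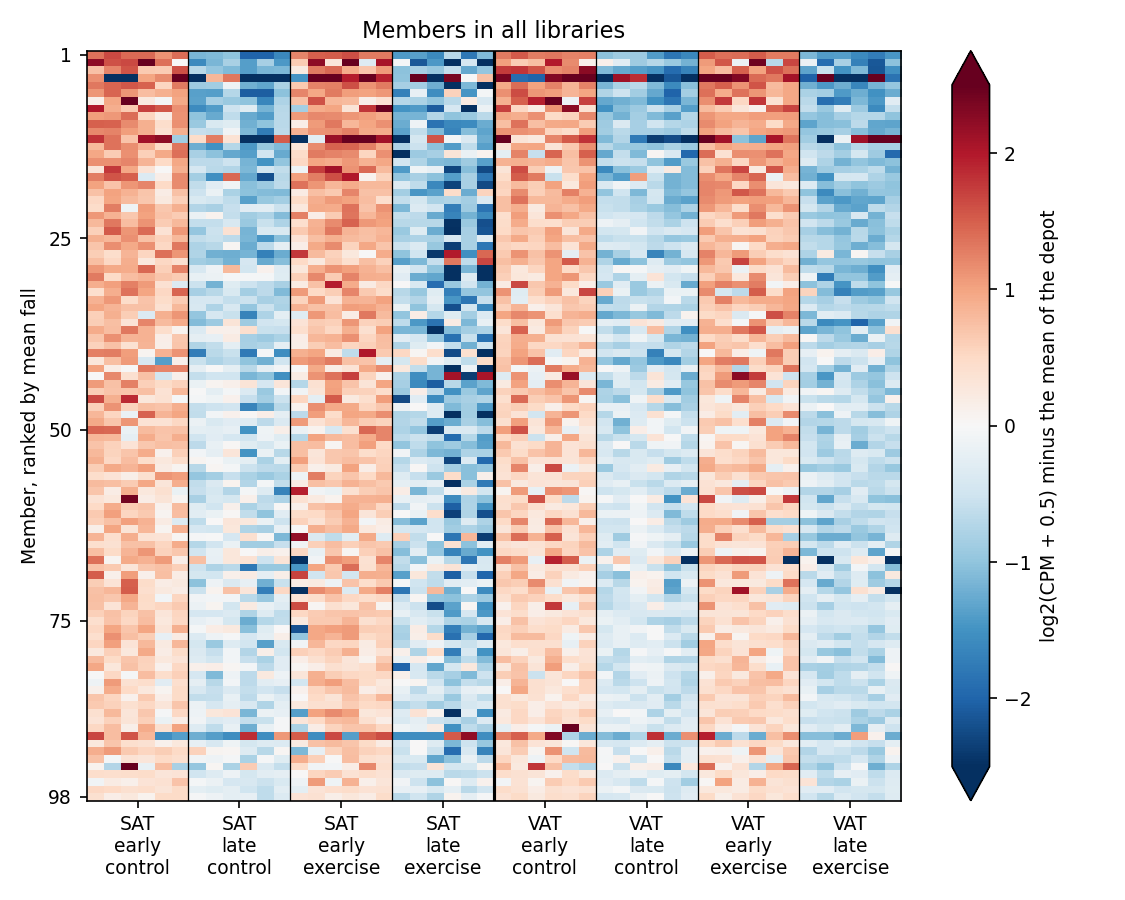
Level of each of the 98 members (rows, rank 1 at the top) in each of the 48 libraries (columns, by group), as log2(CPM + 0.5) minus the mean of that gene over the 24 libraries of the depot. The early groups are above and the late groups below the depot mean in nearly every row, as the rule requires, and the rows differ in how evenly the 6 libraries of a group behave.

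**Figure D2:**
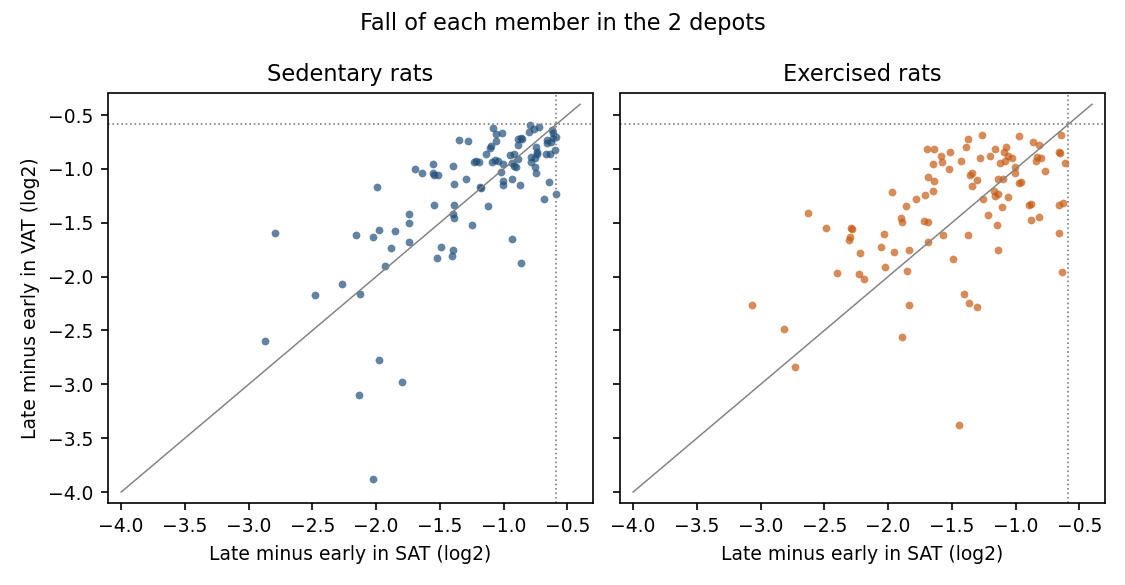
Late minus early in VAT (vertical axis) against SAT (horizontal axis), as log2 differences of group means, 1 point per member. Sedentary and exercised rats are in separate panels. Dotted lines mark the 1.5-fold limit of the rule and the diagonal marks equal falls. In sedentary rats 46 and in exercised rats 39 of the 98 points lie below the diagonal, on the side of the larger fall in VAT.

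Summed over the members, these genes took between 0.302% and 1.01% of all counts of a library. The sum was 8268, 8798 and 9178 CPM (lowest, median and highest of 6 libraries) in early control SAT and 3246, 3807 and 4641 CPM in late control SAT. In early exercise SAT it was 6321, 9244 and 10099 CPM, and in late exercise SAT 3024, 3465 and 3864 CPM. Early and late libraries of SAT did not overlap in this sum. In VAT the corresponding values were 6972, 7852 and 8286 CPM for early control, 3309, 3753 and 3959 CPM for late control, 6751, 8154 and 8721 CPM for early exercise, and 3356, 3619 and 4075 CPM for late exercise, again without overlap. The mean log2 level of the members, which weights each gene equally, behaved alike: its lowest early value was 4.34 in SAT and 4.59 in VAT, and its highest late value 3.96 in SAT and 3.72 in VAT. The lowest early value belonged to a single library, early exercise SAT replicate 1, in which 57 of the 98 members had their group's lowest value, against 42.6% of all genes.

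**Figure D3:**
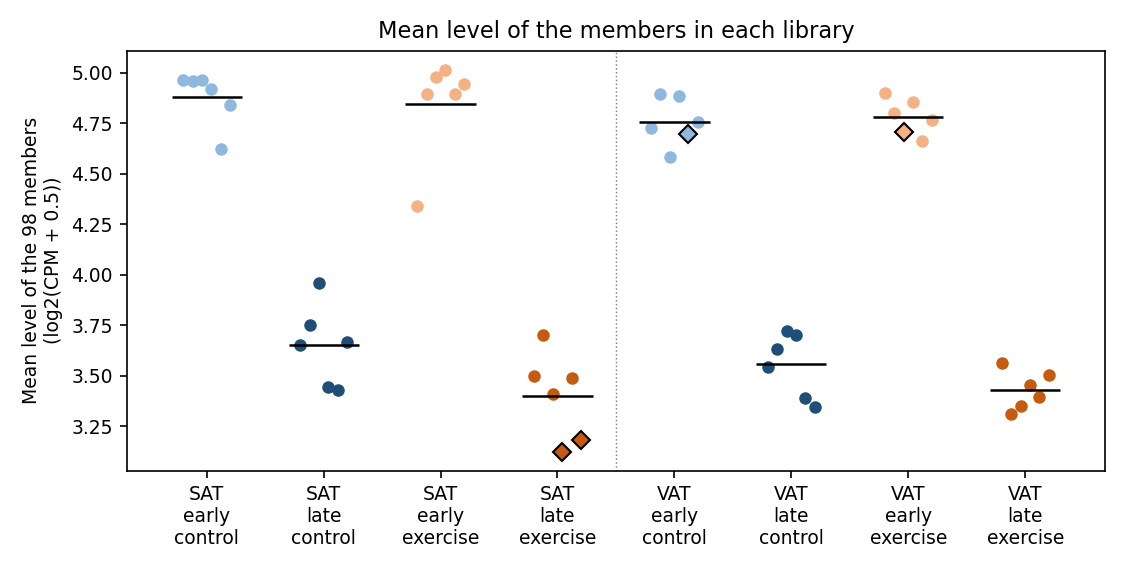
Mean log2(CPM + 0.5) over the 98 members in each library, by depot and group, with a line at the group mean and black-edged diamonds for the 4 libraries that stand apart. Every late library sits below every early library of its depot, at most 3.96 against at least 4.34 in SAT, and early exercise SAT replicate 1 sits below the other 5 of its group.

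The separation of single genes was looser than that of the sum. All 6 late libraries were below all 6 early libraries for 62 members in sedentary SAT (2.15% of all genes), 56 in exercised SAT (2.2%), 65 in sedentary VAT (2.69%) and 70 in exercised VAT (5.21%). All 12 late libraries were below all 12 early ones for 38 members in SAT (0.449% of all genes) and 52 in VAT (1.23%). In both depots at once this held for 30 members, out of 0.346% of all genes, and the same 12-against-12 order was kept among others by members 1, 3, 5, 6, 9 and 10 of the largest falls and by members 91, 95 and 98 of the smallest. Since the rule used these libraries, the shares show only how evenly the selected difference was spread over rats.

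In edgeR's quasi-likelihood test over all genes with Benjamini-Hochberg adjustment at 0.05, lower late calls took in 63 of the 98 members in sedentary SAT (1.69% of all genes tested), 84 in exercised SAT (7.51%), 89 in sedentary VAT (5.96%) and 91 in exercised VAT (10.8%). Without the 4 libraries that stand apart the counts were 78, 75, 89 and 92 (4.13%, 6.13%, 7.84% and 13.5% of all genes). All 98 members passed the filter on low counts in both depots. In all 4 comparisons 57 members were called (65 without those libraries), against 119 of 13755 genes, or 0.865%. A further 29 were called in 3 comparisons, 8 in 1 or 2, and 4 in none, namely members 4, 67, 71 and 90. The rule used the same contrasts, so these counts describe the members' replicate error and are no test of them.

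Member 1, ENSRNOG00000019383, had the largest mean fall. In early control SAT its lowest, median and highest values were 204, 248 and 296 CPM, and in late control SAT 22.9, 36.3 and 46.6 CPM. In early exercise SAT they were 218, 247 and 286 CPM, and in late exercise SAT 26.8, 35.4 and 57.3 CPM. In VAT they were 177, 182.5 and 218 CPM in early control, 21.0, 32.1 and 39.97 CPM in late control, 184, 196 and 214 CPM in early exercise, and 22.2, 27.4 and 34.2 CPM in late exercise. The highest late value was 57.3 CPM and the lowest early one 177 CPM, so early and late did not overlap in either depot. The fitted log2 differences were -2.87 ± 0.17 (SE) in sedentary SAT, -2.76 ± 0.17 in exercised SAT, -2.58 ± 0.13 in sedentary VAT and -2.78 ± 0.14 in exercised VAT, with 6 libraries a group.

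Member 56, ENSRNOG00000049560, had the highest CPM of the 98. It ran from 1157 over a median of 1405 to 2260 CPM in early control SAT and from 535 over 593 to 705 CPM in late control SAT. In exercised SAT it ran from 957 over 1608 to 2543 CPM early and from 503 over 765 to 1436 CPM late, so that these groups overlapped. In VAT its spread was narrower, at 986, 1073 and 1166 CPM in early control, 466, 561 and 614 CPM in late control, 959, 1223 and 1295 CPM in early exercise and 492, 549 and 713 CPM in late exercise. The fitted log2 differences were -1.47 ± 0.23, -1.02 ± 0.23, -0.97 ± 0.11 and -0.97 ± 0.11 (SE, in the order sedentary and exercised SAT, sedentary and exercised VAT).

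Other members, singled out after their values were seen, had group means that hid very uneven rats. Member 12 ran from 0 over 774 to 1445 CPM in early exercise SAT and from 19.8 over 134 to 526 CPM in late exercise SAT. In VAT it ran from 77.4 over 172 to 480 CPM in early control, from 0 over 16.1 to 39.1 CPM in late control, from 25.8 over 220.5 to 590 CPM in early exercise, and from 0 over 173 to 913 CPM in late exercise. In edgeR it was the only member with a fitted difference above 0 in any of the 4 comparisons, +0.49 ± 0.96 (SE, adjusted p = 0.766) in exercised VAT, where its log2 mean was nevertheless lower late. The sign turned to -1.65 in limma voom (adjusted p = 0.509) and to -0.30 without late exercise VAT replicate 5 (edgeR, adjusted p = 0.873). Member 4 was at 0, 0 and 13.4 CPM (lowest, median and highest) in late control SAT and at 0, 2.65 and 110 CPM in late exercise VAT, against 29.6, 54.8 and 109 CPM in early exercise VAT. Its highest late value was thus as high as its highest early one in these groups. A count of 0 in at least 1 library occurred in 8 members, and in 6 of these, members 4, 12, 14, 67, 71 and 90, a rat of the same group had 5 CPM or more.

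Whether exercise moved these genes was asked within each phase and over both phases together; only the contrast over both phases is balanced with respect to the rule, since a contrast within 1 phase rests on part of the libraries whose late and early means the rule compared. Over both phases, exercised and sedentary rats differed in 0 of 98 members in SAT and 0 in VAT (edgeR, adjusted p under 0.05; 0% of all genes tested in either depot). The median log2 difference of the members, exercised minus sedentary, was -0.05 in SAT and -0.02 in VAT, next to 0.01 and 0.00 for all genes. An unadjusted p under 0.05 was found for 13 members in SAT, next to 16.3% of all genes, and 8 in VAT, next to 5.65%. DESeq2 called 3 members in SAT (2.02% of all genes) and 0 in VAT, and limma voom 0 in both.

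In the early phase edgeR called 0 of 98 members in either depot, as it did 0% of all genes. The median difference of the members was 0.03 in SAT and 0.05 in VAT, an unadjusted p under 0.05 occurred in 1 member in SAT (0.911% of all genes) and 2 in VAT (2.49%), and DESeq2 and limma voom called 0 in both depots. In the late phase of VAT edgeR likewise called 0 members (0% of all genes), with a median difference of -0.110 against -0.005 over all genes and 12 members at an unadjusted p under 0.05, next to 11.2% of all genes. There DESeq2 called 1 (0.238% of all genes) and limma voom 2 (1.44%). The widest difference in late VAT was that of member 12, with late control at 0 to 39.1 CPM and late exercise at 0 to 913 CPM, +4.12 ± 1.10 (SE, adjusted p = 0.241, edgeR).

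Late-phase exercise in SAT was the only exercise comparison in which edgeR, with all libraries, called any gene. Of the 98 members, 7 differed between late exercise and late control rats, 5 lower and 2 higher (edgeR, adjusted p under 0.05). Among all genes tested, 3.67% were called lower and 7.83% higher, 11.5% in all, so that 7 of 98 members was not above the background share. The difference between members and other genes in these shares was not tested. The median member difference was -0.18 against 0.03 for all genes, and 63 of the 98 members were below 0 against 46.4% of all genes. Both figures moved with the 2 libraries that stand apart. Without them the median was -0.004 against 0.001, and 50 of the 98 members were below 0 against 49.9% of all genes. In that fit edgeR called 2 members, both lower (0.696% of all genes lower, 1.44% higher, 2.14% in either direction). In those 2 libraries 61 of the 98 members were lower than in the other 4 of the group, against 37.0% of all genes, and the median difference was -0.33 against 0.26. The rule used the mean of this group with these 2 libraries in it, so this contrast with all genes is in part built in. Nothing is read from it.

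The 2 calls left without those libraries were members 44 and 37. Member 44 measured 2.88, 4.34 and 5.20 CPM (lowest, median and highest) in late control SAT and 0.592, 1.45 and 2.30 CPM in late exercise SAT, with no overlap. The log2 difference was -1.49 ± 0.29 (SE, adjusted p = 0.011, edgeR) with all libraries and -1.65 (adjusted p = 0.019) without those that stand apart. In early SAT the same gene overlapped between exercised and control rats, at 2.26 to 8.62 and 5.84 to 10.3 CPM. Member 37 averaged 15.8 ± 4.67 CPM in late control SAT and 7.28 ± 2.53 CPM in late exercise SAT (SD, n = 6 each), a difference of -1.09 ± 0.25 (SE, adjusted p = 0.016, edgeR; 0.0455 without the libraries that stand apart). Neither was called by limma voom or in a fit of the 2 groups alone, in which no other of the 7 was called either. That fit of 2 groups called 0 of 13790 genes, and limma voom called 197 of 14372 genes higher and 101 lower. Over 19 other settings the adjusted p of member 44 ran from 6.5e-05 to 0.133 and that of member 37 from 0.00076 to 0.133.

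The other 5 were not called without the 2 libraries, a fit that also has fewer samples. Member 66 measured 148, 215 and 249 CPM in late control and 64.6, 91.5 and 171 CPM in late exercise SAT, a difference of -1.001 ± 0.22 (SE, adjusted p = 0.015, edgeR) that became -0.74 (adjusted p = 0.058) without them. Member 52 was low throughout, with a mean of 0.827 ± 0.210 CPM in late control rats, going to 0.314 ± 0.133 CPM in late exercise rats (SD, n = 6 each), and its adjusted p rose to 0.052. Member 49 averaged 46.9 ± 5.22 and 30.8 ± 6.43 CPM in the same groups, and its adjusted p rose from 0.040 to 0.217. The 2 members called higher, 27 and 28, were close to 0 difference without the libraries that stand apart. Member 28 averaged 4.78 ± 1.19 CPM in SAT of late control rats, while late exercise rats averaged 12.6 ± 12.2 CPM (SD, n = 6 each), and its difference of 1.34 ± 0.37 became 0.17 (adjusted p = 0.663) without them. That of member 27 went from 1.87 ± 0.57 to 0.10 (adjusted p = 0.917).

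Members 1 and 56 were not called for exercise in any phase or depot. The differences of member 1 lay between -0.13 and 0.16 on the log2 scale. Member 56 differed most in late SAT, by 0.52 ± 0.23 (SE, adjusted p = 0.121, edgeR), and by 0.22 (adjusted p = 0.590) without the libraries that stand apart.

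**Figure D4:**
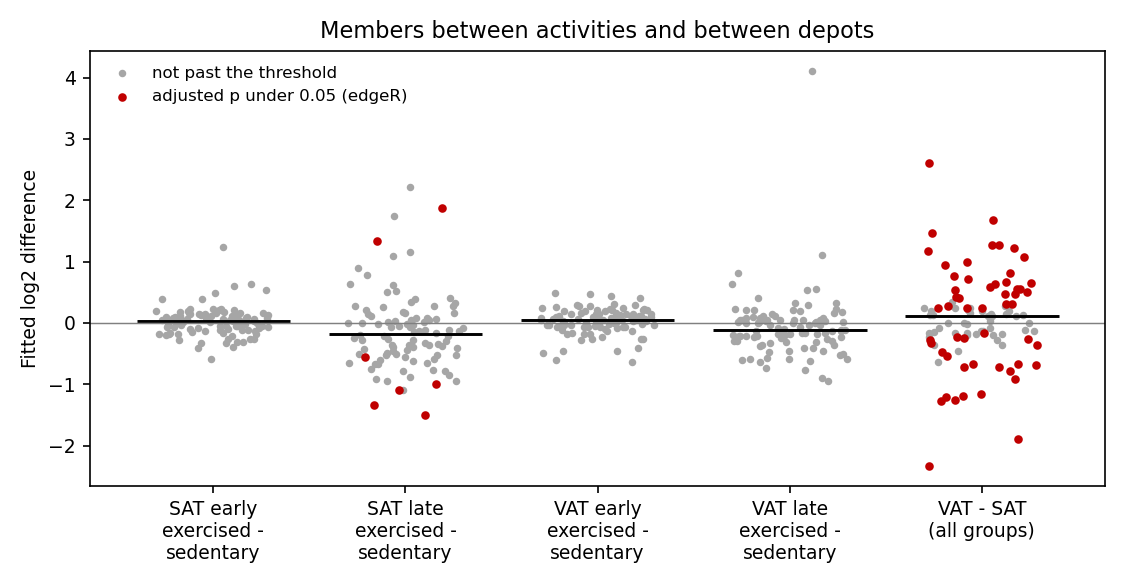
Log2 differences of the 98 members, 1 point each, for exercised minus sedentary rats within each phase and for VAT minus SAT. Red points have an edgeR adjusted p under 0.05 and the black line is the median of the members. Red points are 7 for late exercise in SAT, 54 for the depots and 0 elsewhere, and the depot differences reach from -2.33 to 2.61.

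The level of the members in the 2 depots was not used by the rule. Between VAT and SAT, averaged over the 4 groups, 54 of the 98 members differed (edgeR, adjusted p under 0.05), 31 of them higher in VAT and 23 in SAT. Of all genes tested, 27.8% were called higher in VAT and 32.5% higher in SAT, 60.3% in all. The difference between members and other genes in these shares was not tested. The median difference of the members was 0.11 against -0.04 for all genes. Of the 54, 15 differed by more than 2-fold, for which no share over all genes is given, so nothing is read from that count. Both depots came from the same rats; with the rat as a block 61 members were called, 40 of them towards VAT and 21 towards SAT, where 29.2% of all genes were called towards VAT and 31.2% towards SAT, 60.3% in all. Without the libraries that stand apart and without the block, 56 were called, 33 towards VAT and 23 towards SAT (30.2% and 35.2%, 65.4% of all genes in all).

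Member 40 differed most towards VAT. In early control rats it ran from 17.5 over 35.9 to 41.1 CPM in SAT and from 84.1 over 149 to 205 CPM in VAT. In late control rats it ran from 4.53 over 7.82 to 16.3 CPM in SAT and from 31.1 over 71.4 to 78.7 CPM in VAT. In exercised rats the SAT values were 10.5, 28.9 and 68.1 CPM early and 2.23, 19.7 and 24.2 CPM late, and the VAT values 94.8, 136 and 257 CPM early and 60.7, 87.4 and 114 CPM late. The depots did not overlap in any of the 4 groups, and the difference was 2.61 ± 0.22 (SE, adjusted p = 3.78e-13, edgeR), or 6.12-fold. After it came member 4, with 1.68 ± 0.64 (adjusted p = 0.023), whose counts of 0 are described above, and member 32, with 1.46 ± 0.19 (adjusted p = 2.29e-08). The call of member 4 was lost in DESeq2 (adjusted p = 0.067), in limma voom (0.454) and without late control VAT replicate 2 (0.051) or late exercise VAT replicate 2 (0.053).

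Member 58 differed most towards SAT. It measured 4.43, 6.47 and 9.64 CPM in early control SAT against 0.787, 1.80 and 2.79 CPM in early control VAT, and 1.24, 3.37 and 4.796 CPM in late control SAT against 0.123, 0.523 and 0.724 CPM in late control VAT. In exercised rats it measured 4.43, 7.32 and 20.6 CPM in SAT against 0.838, 1.64 and 4.09 CPM in VAT early, and 1.99, 4.11 and 5.98 CPM against 0.329, 0.401 and 0.701 CPM late. The lowest SAT library lay above the highest VAT library in each of the 4 groups. The difference was -2.33 ± 0.20 (SE, adjusted p = 4.52e-13, edgeR), or 5.03-fold, followed by member 64 with -1.89 ± 0.24 (adjusted p = 9.49e-09) and member 14 with -1.27 ± 0.23 (adjusted p = 8.49e-06). The late values of member 58 in VAT were only a few counts per library, which limits their precision.

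The depot differences of the named IDs were small. That of member 1 was -0.17 ± 0.08 (SE, adjusted p = 0.048, edgeR), or 1.13-fold higher in SAT, and was lost without the libraries that stand apart (adjusted p = 0.186); it was called in 22 of 54 other settings. That of member 56 was -0.28 ± 0.09 (adjusted p = 0.0079), and its adjusted p without those libraries was 0.054.

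Within groups the median member varied more than the median gene. The SD of log2 values around the group means had a median of 0.43 over the members and 0.27 over all genes. It ran from 0.15 in member 86 to 2.63 in member 12, and was above 1 in members 4, 12, 67 and 90 only. The rule took genes with large differences between group means, and no test was made of this spread.

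With the group means removed, the 2 depots of a rat can be compared over 24 rats, as a description; points share the rat and the day of collection, and each depot has its own library. The median correlation between the SAT and the VAT deviation was 0.31 for the members and 0.15 for all genes. It was 0.45 against 0.18 over the 20 rats with neither library standing apart. A correlation above 0.6 was found in 15 members, or 15.3%, against 2.19% of all genes, and in 26 members against 5.81% of all genes without those libraries. Member 90 had the highest, 0.85, followed by member 84 with 0.81, member 17 with 0.80, member 9 with 0.79, member 96 with 0.78 and member 15 with 0.77. Member 1 had 0.59 and 0.83 without the libraries that stand apart. Member 12, with its values from 0 to 1445 CPM, had -0.22.

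Member 90 was either present or nearly absent in both depots in 23 of 24 rats. It reached at most 6.30 CPM. With a limit of 0.5 CPM, chosen after its values were seen, it was above the limit in both depots of 11 rats and below it in both depots of 12, so that the depots matched in 23 of 24 rats. The highest value below the limit was 0.245 CPM and the lowest above it 0.770 CPM. The 0.245 CPM was that of VAT in early exercise replicate 3, a library that stands apart, against 4.13 CPM in SAT of that rat. Both depots were above the limit in 4 of 6 early control rats, 3 of 6 early exercise rats, 2 of 6 late control rats and 2 of 6 late exercise rats. Its group means thus moved with the number of rats above the limit, and edgeR called it in none of the 4 phase comparisons (adjusted p from 0.472 to 0.870).

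**Figure D5:**
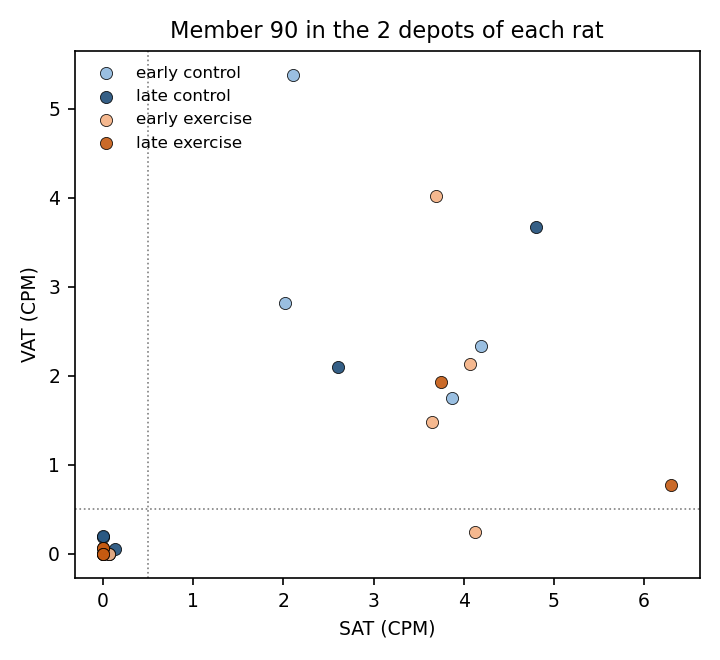
Level of member 90 in VAT (vertical axis) against SAT (horizontal axis), 1 point per rat by group, in CPM, with dotted lines at 0.5 CPM. In 23 of 24 rats both depots fall on the same side of the limit.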

How the data were processed

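PolyA-selected RNA of both depots was sequenced as 50-nt single-end reads from RNA with an integrity number over 9, per the labels' protocols. The authors deposited estimated counts per gene, as whole numbers, made with Salmon 1.4.0 and build rn6 per the submitters' processing notes. The sources used here do not give the annotation or how transcripts were summed. Columns were matched to samples by library name. CPM were computed from column totals.

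Differences and adjusted p-values come from edgeR 4.0.16 (quasi-likelihood test, TMM scaling, its filter on low counts, Benjamini-Hochberg at 0.05; R 4.3.3), fitted over all genes to the 24 libraries of a depot, or all 48 for the depot comparison; standard errors were derived from its statistic. DESeq2 1.42.0 and limma 3.58.1 (voom with quality weights), other scaling, no filter, a replicate block, a fit of 2 groups and left-out libraries were alternatives. The programs were tested on simulated data.

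Replicate numbers are shared between the depots and taken as the rat: 23 of 24 SAT libraries were closest to the VAT library of their own number within the group (4 by chance), over 33 to 105 genes whose deviations correlated above 0.8 between depots in the 18 rats of the other groups. Rats are separate animals, per the labels. No 2 libraries of a group agreed within sampling noise.

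The members, lists and the 4 libraries that stand apart were chosen with earlier results of these data known. Of the IDs, 0 matched the rat gene and promoter tables, so the planned gene lists, markers and motifs were not analysed here. Named were the 2 members with the largest mean fall and the highest CPM by ID; others appear by rank, chosen by called difference, position at the rule's edge, or, where stated, after their values were seen.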

Additional observations from a re-analysis of the deposited data

Results flagged for a closer look

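In groups of 6 libraries, a highest or lowest value far from the other 5 was looked for in 10 members and in the members' mean log2 level, over 8 groups each, by Dixon's test at the 95% level. Of these 88 tests, 6 picked out a library. Chance picks out about 1 in 20 where items are chosen blind, but some of the 10 members were singled out after their values were seen. The 6 of 88 cannot therefore be set against that rate. Member 1 measured 218 CPM in early control VAT replicate 2, with the other 5 rats between 177 and 187 CPM. Member 4 measured 34.9 CPM in early control SAT replicate 6, with the others between 0 and 12.2 CPM. Member 12 measured 526 CPM in late exercise SAT replicate 3, with the others between 19.8 and 168 CPM. Member 58 measured 20.6 CPM in early exercise SAT replicate 1, with the others between 4.43 and 8.40 CPM. The mean log2 level of the 98 members was 4.62 in early control SAT replicate 5, with the others between 4.84 and 4.97, and 4.34 in early exercise SAT replicate 1, with the others between 4.90 and 5.02. None of these 6 is among the 4 libraries that stand apart in their depot, but early exercise SAT replicate 1 had the fewest detected genes of the 48 libraries, 14653.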

How the results depend on the processing

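The counts of members with an adjusted p under 0.05 for phase, early exercise and depot stayed within 1.5 times under every alternative run. For late exercise in SAT, edgeR called 7 members, DESeq2 11, limma voom 0 and the fit with a replicate block 4. The fit of the 2 groups alone called 0 (member 52 did not pass its filter) and the fit without the libraries that stand apart 2. Of all 14372 genes, DESeq2 called 1832 higher and 886 lower, limma voom 197 and 101, and the replicate block 210 and 175. The fit of the 2 groups called 0 of 13790 genes, and the fit without the libraries that stand apart 2.14%. Leaving out 1 library at a time gave 4 to 13 members. It gave 4 without late exercise SAT replicate 4 or 6 and without late control SAT replicate 1, 2, 3 or 6, each time members 37, 44, 52 and 66. Shares over all genes are not given for the fits that left out 1 library. For exercise over both phases in SAT, DESeq2 called 3 members and leaving out 1 library 0 to 1, and for late exercise in VAT DESeq2 called 1, limma voom 2 and leaving out 1 library 0 to 1. The cause was not tested. Leaving out 1 library gave 49 to 63 phase calls in sedentary SAT, 75 to 86 in exercised SAT, 81 to 87 in sedentary VAT, 89 to 92 in exercised VAT and 51 to 56 depot calls. With the replicate number as a block, phase calls were 57, 82, 86 and 92 in that order. Next to them, 192 and 977 of 14372 genes were called lower in SAT and 779 and 1428 of 13883 in VAT. Within a depot the same replicate number marks different rats, whose deviations correlated from -0.51 to 0.57, so this block pairs nothing. With the rat as a block, which does pair the depots, 61 depot calls were made. None of the called differences of single members given above changed sign where it could be fitted; the uncalled phase difference of member 12 in exercised VAT, 0.49, was -1.65 in limma voom and ran from -0.30 (without late exercise VAT replicate 5) to 0.98 when 1 library was left out. The rule gave 105 members with TMM-scaled CPM (98 shared), 88 with a pseudocount of 1 (88 shared) and 112 without the libraries that stand apart (88 shared). For members of a few counts per library, depth limits what can be seen.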

Other observations

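The deviations of the members from their group means were grouped by average linkage into 4 sets, a division chosen after the values were seen and given without a test. Over the 4753 pairs of members the median correlation was 0.13, next to 0.11 for pairs of all genes. Without the libraries that stand apart it was 0.15, next to 0.09. With all libraries 232 pairs of members were above 0.6, for which no share over all gene pairs is given. The sets held 61, 18, 17 and 2 members, with median correlations inside them of 0.31, 0.25, 0.33 and 0.27. The set of 17 held members 1 and 56, and all 17 were higher in the 2 late exercise SAT libraries that stand apart than in the other 4 of their group, by a median of 1.26 on the log2 scale. In the set of 61, 49 were lower there, by a median of 0.83 over the set. Of all genes, 37.0% were lower there. The sets were formed from deviations that include these 2 libraries, so their direction there is in part built in and is no separate result.

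Among genes outside the members, the highest correlation with the members' mean deviation over the 48 libraries was 0.88, and 684 genes were above 0.6. The members' own median correlation with that mean was 0.41, where each member is itself a part of the mean. For the 7 genes set aside by the rule, which are not part of it, the correlation ran from -0.24 to 0.50.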
